A study of Mus musculus with 7 samples.

Results

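Clustered zinc finger genes were taken as the protein-coding genes of the GENCODE M21 annotation (mouse build mm10) whose symbol is Zfp followed by a number only and whose start lies within 100 kb of the start of another such gene. This rule gave 202 genes in 54 clusters, out of 365 genes with such a symbol and 21938 protein-coding genes in all. The remaining 163 Zfp genes stood alone. Their open chromatin was read from the peak lists of 7 ATAC-seq samples of HPC7, a progenitor line of mouse blood cells that was grown in medium with stem cell factor, with no treatment named in the labels. The libraries (replicates 1, 2, 4, 5, 6, 7 and 8) form a single group from separate culture batches, so comparisons were made between genes within each library and not between conditions. The peak names of replicates 1, 2 and 4 carry the prefix VD and those of replicates 5, 6, 7 and 8 the prefix EtOH, which the labels do not give as conditions. ATAC-seq inserts adapters into accessible DNA, and a peak in a library is called here an open chromatin region (OCR).

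Most Zfp genes encode proteins with arrays of C2H2 zinc fingers, each finger a small fold that contacts a few bases of DNA. Many also carry a KRAB domain, which recruits the corepressor TRIM28 and through it the histone methyltransferase SETDB1, and such proteins are known for silencing transposable elements. The family grew by repeated tandem duplication, which left clusters of related genes side by side in the genome.

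The 7 lists held between 84593 (replicate 6) and 132852 (replicate 1) OCRs. Read depths were not used here, but the fold enrichments of each list were whole multiples of a single step (within 0.02 of a step for 100% of OCRs), which gives the read pileup at each summit. The background corresponding to that step lay between 4.44 reads (replicate 2) and 20.4 reads (replicate 1), so that the weakest summit called held 12 to 35 reads. Of 8 hematopoietic progenitor markers, 7 had an OCR at the gene start in all 7 libraries, against 51.6% of all protein-coding genes, and Gata2 had one only at another of its annotated transcript starts. Among markers of other cell types, Cd3e, Cd79a, Alb, Krt5, Col1a2 and Myh6 had no OCR at any annotated start in any library.

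The promoter sequences of 6 clustered genes are shown first, because they span the range of the measurements that follow. They run from 250 bases before to 50 bases after the start in RefSeq (GRCm38.p6), which held such a sequence for 174 of the 202 clustered and 126 of the 163 alone genes. Zfp13 (chr17:23599438-23599737, minus strand) had the highest mean fold enrichment, and Zfp787 (chr7:6155916-6156215, minus strand) the next highest on another chromosome with a sequence in the table (Zfp446 had none). Zfp944 (chr17:22361351-22361650, minus strand) shares an OCR with its divergent neighbour Zfp758, and Zfp108 (chr7:24254544-24254843, plus strand) is a weakly open member of the Zfp180 to Zfp94 cluster. Zfp112 (chr7:24112070-24112369, plus strand) and Zfp626 (chr7:27806946-27807245, plus strand) had no OCR at the start in any library. Zfp944 was chosen after its values were seen. Zfp108 was chosen for holding the most AANTGTAGT matches among clustered genes with an OCR in all 7 libraries. Capitals mark matches, on either strand, to any of the 10 short motifs spelled out further on.
Zfp13: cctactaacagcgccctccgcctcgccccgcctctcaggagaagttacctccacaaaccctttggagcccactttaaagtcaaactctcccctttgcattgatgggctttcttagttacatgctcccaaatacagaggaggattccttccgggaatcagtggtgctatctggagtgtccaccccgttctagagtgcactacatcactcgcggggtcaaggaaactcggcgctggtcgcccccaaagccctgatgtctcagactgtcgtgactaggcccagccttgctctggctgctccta
Zfp787: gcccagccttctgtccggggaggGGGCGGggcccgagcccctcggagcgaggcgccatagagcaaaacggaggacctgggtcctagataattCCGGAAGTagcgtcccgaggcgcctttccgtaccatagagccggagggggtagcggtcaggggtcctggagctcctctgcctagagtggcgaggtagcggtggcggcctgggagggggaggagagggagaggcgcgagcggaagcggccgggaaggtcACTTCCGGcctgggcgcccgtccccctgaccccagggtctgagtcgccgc
Zfp944: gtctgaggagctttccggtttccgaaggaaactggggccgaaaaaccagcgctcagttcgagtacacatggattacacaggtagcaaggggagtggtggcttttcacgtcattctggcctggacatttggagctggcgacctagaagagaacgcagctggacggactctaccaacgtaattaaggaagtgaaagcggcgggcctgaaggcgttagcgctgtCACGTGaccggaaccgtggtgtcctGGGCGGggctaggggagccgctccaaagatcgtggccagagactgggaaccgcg
Zfp108: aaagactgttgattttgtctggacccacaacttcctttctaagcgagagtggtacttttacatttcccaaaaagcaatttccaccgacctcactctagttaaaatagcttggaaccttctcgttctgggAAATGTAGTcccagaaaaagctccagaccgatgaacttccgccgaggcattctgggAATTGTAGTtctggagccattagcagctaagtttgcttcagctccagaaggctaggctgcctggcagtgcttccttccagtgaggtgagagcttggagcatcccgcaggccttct
Zfp112: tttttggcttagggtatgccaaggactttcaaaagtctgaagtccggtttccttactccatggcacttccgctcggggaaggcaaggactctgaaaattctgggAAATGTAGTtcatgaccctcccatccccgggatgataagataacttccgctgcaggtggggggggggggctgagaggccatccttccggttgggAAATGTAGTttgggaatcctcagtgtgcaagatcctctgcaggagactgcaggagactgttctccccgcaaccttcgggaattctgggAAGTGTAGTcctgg
Zfp626: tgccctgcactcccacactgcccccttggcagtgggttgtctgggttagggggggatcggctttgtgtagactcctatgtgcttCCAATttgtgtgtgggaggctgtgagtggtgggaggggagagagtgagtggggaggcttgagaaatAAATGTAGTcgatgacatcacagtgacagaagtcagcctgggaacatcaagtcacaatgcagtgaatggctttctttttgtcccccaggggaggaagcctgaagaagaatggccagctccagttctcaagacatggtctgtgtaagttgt

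The first question was how often the start of a clustered Zfp gene lay in open chromatin, counted as an OCR that overlaps the 1 kb on either side of the start. In replicates 1, 2, 4, 5, 6, 7 and 8, the share of the 202 clustered genes with a promoter OCR was 78.2%, 77.2%, 78.7%, 76.7%, 77.7%, 78.7% and 78.7%. Among the 163 alone genes it was 74.8%, 73.6%, 74.2%, 73.0%, 73.0%, 74.2% and 73.0%. Over all protein-coding genes the corresponding values were 56.1%, 53.1%, 53.8%, 53.3%, 52.8%, 54.1% and 54.8%. The lowest clustered share was thus above the highest alone share, and both Zfp groups lay above the background in every library. The clustered genes exceeded the alone genes by 4.30 ± 0.80 percentage points (SD, n = 7 libraries), with the same sign in 7 of 7 (exact two-sided sign-flip permutation test, p = 0.0156, the smallest 7 libraries can give; Benjamini-Hochberg adjusted over 9 tests, 0.0176). The libraries hold the same genes, so this test covers the spread between libraries and not a choice of other genes. The call ended when each cluster counted once (0.241 points, exact p = 0.672) and when starts up to 200 kb apart were joined (1.01 points, exact p = 0.0781), while a distance of 50 kb gave 14.2 points and clusters of 3 or more genes 8.63 points. Within the libraries of either prefix it was 3.82 points (VD, n = 3) and 4.66 points (EtOH, n = 4).

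The same genes were then set against their surroundings. The 21573 protein-coding genes outside the Zfp set had a promoter OCR in 53.6 ± 1.15% of cases (SD, n = 7), which is 24.4 ± 1.00 points below the clustered genes (exact sign-flip permutation test, p = 0.0156, adjusted 0.0176). Another 52 protein-coding genes lie between the first and last start of a cluster without being Zfp genes. Their share was 58.2 ± 2.41%. The clustered genes exceeded it by 19.8 ± 1.82 points (exact sign-flip permutation test, p = 0.0156, adjusted 0.0176). The gap to these neighbours was not adjusted for the base composition of the starts, which differed between the groups and is given below. Of these neighbours, the 32 whose translated protein held fewer than 3 zinc fingers stood at 57.1 ± 3.92%, while 12 of the 20 with 3 or more had an OCR in every library. The related Zscan and Zkscan genes (21 genes, whose products pair a SCAN domain with zinc fingers) stood at 85.7% in every library.

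**Figure D1:**
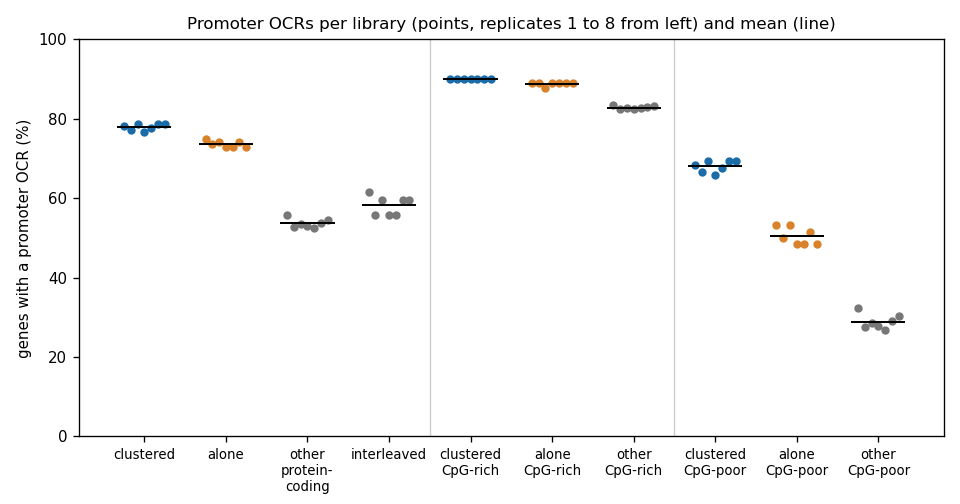
Share of genes with an OCR within 1 kb of the start (vertical axis, percent), for each gene group (horizontal axis). Each point is 1 library and each line the mean of 7. The clustered genes (blue) lie between 76.7% and 78.7%, above the alone genes (orange), and the gap is wider at CpG-poor starts.

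The base composition of the start divided the comparison. The ratio of observed to expected CpG in the 1 kb centred on the start had a median of 0.555 in the clustered and 0.652 in the alone genes, and 91 clustered (45.0%) and 99 alone genes (60.7%) reached 0.6, called CpG-rich here. At CpG-rich starts the clustered genes stood at 90.1% in each of the 7 libraries and the alone genes at 88.7 ± 0.38%, a difference of 1.37 ± 0.38 points (exact sign-flip permutation test, p = 0.0156, adjusted 0.0176) whose size depended on the setting. The counts were 82 of 91 clustered genes in every library and 88 of 99 alone genes, except 87 in replicate 4. With nearly the same calls in each library, the test cannot show whether other genes would give such a gap. The difference was 0.011 points (exact p = 1.00) when any annotated transcript start counted, 0.322 among starts with 90% unique words and 0.877 with a window of 3 kb. It was 3.82 with a window of 500 bp, 4.63 with the summit in the window, 5.36 with 50 kb between starts, 3.68 in clusters of 3 or more genes and 4.39 with a CpG ratio of at least 0.75. At CpG-poor starts, the 111 clustered genes stood at 68.5%, 66.7%, 69.4%, 65.8%, 67.6%, 69.4% and 69.4% in the order of the replicates. The 64 alone genes stood at 53.1%, 50.0%, 53.1%, 48.4%, 48.4%, 51.6% and 48.4%. These ranges did not overlap, and the difference was 17.6 ± 1.89 points (exact sign-flip permutation test, p = 0.0156, an analysis added after the data were seen). The CpG-poor difference was not recomputed with each cluster counted once or with 200 kb between starts. CpG-poor starts of the other protein-coding genes stood at 28.9 ± 1.85%, or 39.2 ± 1.67 points below those of the clustered genes. Their CpG-rich starts stood at 82.8 ± 0.35%, only 7.30 ± 0.35 points below those of the clustered genes. Of the 52 interleaved neighbours, only 13 had a CpG-rich start. Their median ratio was 0.378, against 0.555 in the clustered genes. The difference between clustered genes and neighbours was not recomputed within either CpG class, so the part of base composition in it was not tested.

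Distance to the nearest other Zfp start was the measure that defined the clusters, and the OCR share did not follow it evenly. All 20 genes with another Zfp start within 10 kb had a promoter OCR in all 7 libraries, and 8 of them form the 4 pairs that share an OCR. The share in all 7 libraries was 76.4% of 55 genes at 10 to 25 kb, 83.5% of 79 genes at 25 to 50 kb and 54.2% of 48 genes at 50 to 100 kb. Beyond the clustering distance it was 60.7% of 28 genes up to 200 kb, 66.7% of 36 genes up to 1000 kb and 77.8% of 99 genes farther away. Against 51.6% over all protein-coding genes, the class at 50 to 100 kb lay near the background. The 3 members just inside the 100 kb limit (Zfp965 and Zfp968 at 97.5 kb, Zfp972 at 97.7 kb) had no OCR in any library, and the 3 genes just outside (Zfp72 and Zfp825 at 103.2 kb, Zfp263 at 103.2 kb) had one in all 7. Of the 100-base words around the start, 0% were unique in the genome at Zfp965 and Zfp968 and 49.8% at Zfp972, against 90.7% at Zfp825 and 100% at Zfp72 and Zfp263.

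**Figure D2:**
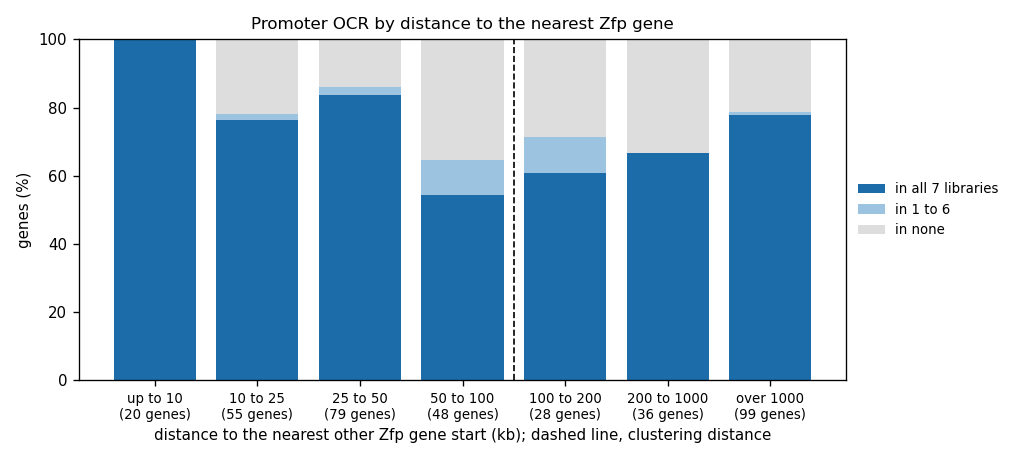
Percentage of the 365 Zfp genes with a promoter OCR in all 7 libraries (dark blue), in 1 to 6 (light blue) or in none (grey), by distance in kb to the nearest other Zfp start. The dashed line marks the clustering distance of 100 kb, and the share in all 7 libraries runs from 100% in the closest class to 54.2% in the class just inside the line.

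Most starts had the same state in every library, in the clustered genes as in the others. Of the 202 genes, 154 (76.2%) had a promoter OCR in all 7 libraries, 8 in 1 to 6 and 40 (19.8%) in none, against 51.6% in all 7 and 42.9% in none over all protein-coding genes. The alone genes counted 118 (72.4%), 4 and 41 (25.2%), and the 21573 genes outside the Zfp set 11055, 1182 and 9336. Clusters of 5 or more genes held an OCR at 84.8 ± 0.58% of their 99 starts. For clusters of 3 or 4 genes it was 77.3 ± 1.41% of 49 starts, and for pairs 66.1 ± 1.4% of 54 starts. Starts in sequence that recurs in the genome, defined below, made up 5 of the 99, 10 of the 49 and 15 of the 54 starts. Such clustered starts had an OCR share of 48.6 ± 2.62%, against 83.1 ± 0.67% for the others. The shares by cluster size were not recomputed without them, so the part of cluster size itself was not tested. Of the 54 clusters, 26 were open at every member in all 7 libraries and 5 had no OCR at any member's start. Another 17 held both open members and members with no OCR.

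The 13 clusters of 5 or more genes differed in how complete they were. The largest, 15 genes from Zfp84 to Zfp146 over 401 kb of chromosome 7, had an OCR at 15 of 15 starts in every library. Its fold enrichments ran from 14.2 ± 3.45 at Zfp27 to 137 ± 32.8 at Zfp566 (SD, n = 7), and Zfp568, known for repressing a placental Igf2 transcript in the embryo, stood at 103 ± 24.4. Also open at every start were Zfp786 to Zfp746 on chromosome 6 (7 genes), Zfp628 to Zfp580 (6), Zfp329 to Zfp446 (5) and Zfp768 to Zfp689 (5) on chromosome 7, and Zfp560 to Zfp846 on chromosome 9 (5). The Zfp786 to Zfp746 cluster includes Zfp746, whose product is known as PARIS, a repressor of the PGC-1 alpha gene, at 74.5 ± 16.3. Its median start had a CpG ratio of 0.851, the highest of the 13.

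Other large clusters were mosaics. In the 10 genes from Zfp180 to Zfp94 on chromosome 7, 6 were open in all libraries and 4 (Zfp112, Zfp114, Zfp111 and Zfp61) had no OCR at the start. The open members ranged from 14.4 ± 3.03 at Zfp109 and 15.2 ± 2.60 at Zfp108 to 127 ± 26.7 at Zfp180, so genes of the same cluster differed by far more than the spread between libraries. The 14 genes from Zfp712 to Zfp748 on chromosome 13, over 493 kb, had 9 open in all libraries, 1 open in a single library (Zfp456) and 4 with no OCR, and none of their starts was CpG-rich. Zfp712 at one end of it stood at 141 ± 31.0 and Zfp429 inside it at 7.24 ± 1.33. In the Zfp677 to Zfp229 cluster on chromosome 17, the outermost genes Zfp677 and Zfp229 had no OCR at the outermost start, whereas the 7 genes between them ranged from 68.4 ± 11.6 at Zfp52 to 154 ± 29.9 at Zfp53. The Zfp871 to Zfp563 cluster, also on chromosome 17, was open at 7 of 8 starts and lacked an OCR only at Zfp811. Zfp60 to Zfp850 on chromosome 7 was open at 3 of 5 starts, Zfp868 to Zfp866 on chromosome 8 at 4 of 5, and Zfp738 to Zfp273 on chromosome 13 at 4 of 5 in all libraries.

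**Figure D3:**
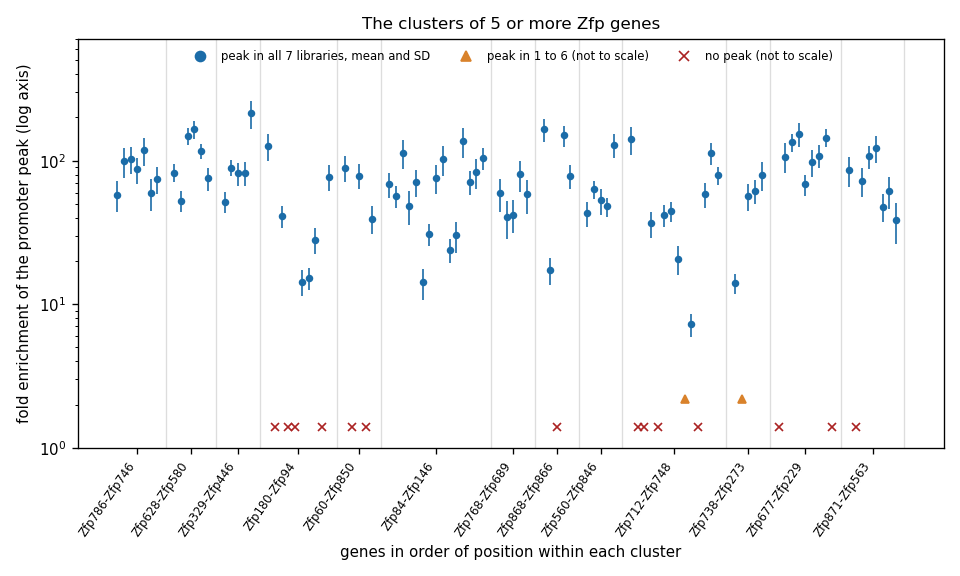
Mean fold enrichment of the promoter OCR with its SD over 7 libraries (log axis) for each gene of the 13 clusters of 5 or more, in order of position. Triangles mark genes with an OCR in 1 to 6 libraries and crosses genes with none, placed at the foot and not to scale. The Zfp84 to Zfp146 cluster holds 15 open starts and no cross, and the Zfp180 to Zfp94 and Zfp712 to Zfp748 clusters hold 4 crosses each.

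The clusters of chromosomes 2 and 4 were smaller. Of the 12 clustered genes on chromosome 4, 2 had an OCR in all 7 libraries (Zfp984 and Zfp933, a pair) and 7 had none, and on chromosome 2 the counts were 5 and 5 of 11, the latter near the shares over all protein-coding genes (51.6% and 42.9%). On chromosome 7, by comparison, 62 of 71 clustered genes were open in all 7 libraries, and on chromosome 17 27 of 32. Several of the unopened starts lie in sequence whose 100-base words recur in the genome. Of the 202 clustered genes, 30 had fewer than 90% unique 100-base words in the 2 kb around the start, and their OCR share was 48.6 ± 2.62%, against 83.1 ± 0.67% for the other 172. Among these 30, 13 had an OCR in all 7 libraries and 13 in none. The difference from alone genes held among starts with at least 90% unique words, at 3.08 ± 0.75 points (exact sign-flip permutation test, p = 0.0156). The part of read placement in the low counts was not tested.

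The 40 clustered starts with no OCR in any library had a median CpG ratio of 0.352, against 0.614 for the 154 open in all 7, and 31 of the 40 were CpG-poor. Of the 40, 13 had under 90% unique words and 21 had 100% unique words. In 7 of them another annotated transcript start of the gene had an OCR in all 7 libraries, namely Zfp663, Zfp61, Zfp934, Zfp458, Zfp708, Zfp759 and Zfp229. The summit nearest to the start lay at a median distance of 18.2 kb. By the rule for naming such genes they include Zfp112 and Zfp114, Zfp626 and Zfp974, Zfp869, Zfp708 and Zfp759, Zfp677 and Zfp229, and Zfp811.

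The 8 genes with an OCR in 1 to 6 libraries had low OCRs. Zfp65 had an OCR in 6 libraries at a fold enrichment of 4.23 to 7.81, and none in replicate 5. Zfp345 was open in 6 libraries at up to 5.68, with none in replicate 6. Zfp985 was called in 4 libraries (up to 3.6), Zfp575 in 3 (up to 3.79), Zfp979 in 2 (up to 4.8), Zfp960 in 2 (up to 3.35), Zfp456 in 1 (3.79) and Zfp992 in 1 (3.44). The weakest OCR of each list stood between 1.68 and 2.44, and the mean percentile of these 8 among the OCRs of a library ran from 6.75 (Zfp960) to 47.7 (Zfp65). The absence of a call in a library does not show an absence of open chromatin. Of the 8, 7 held the KRAB pattern described further on.

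Where a promoter OCR was present, its height was next compared. Fold enrichment is the pileup at the summit over the library's background, and the OCR with the highest value in the window was taken. For the clustered genes its median in the 7 libraries was 82.6, 60.6, 76.8, 79.7, 48.5, 63.9 and 76.8, and for the alone genes 109, 83.9, 93.1, 112, 66.3, 82.4 and 96.3. The clustered median was the lower one in every library. In bulk libraries, fewer cells with an open start and less signal per cell cannot be told apart. The difference was -0.40 ± 0.08 on the log2 scale (SD, n = 7), or a 1.32-fold higher level in the alone genes, over 155 to 159 clustered and 119 to 122 alone genes with an OCR (exact sign-flip permutation test, p = 0.0156, adjusted 0.0176). It was -0.24 ± 0.06 at CpG-rich and -0.60 ± 0.08 at CpG-poor starts. At CpG-poor starts the median was 54.6 ± 8.54 in clustered, 82.9 ± 13.2 in alone and 37.0 ± 4.78 in other protein-coding genes. At CpG-rich starts the corresponding medians were 80.4 ± 15.2, 94.6 ± 15.9 and 90.2 ± 16.1. Expressed as the percentile among all OCRs of the library, the clustered median was 92.2 ± 1.33 and the alone median 94.8 ± 0.75, with the other protein-coding genes at 93.1 ± 0.92.

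**Figure D4:**
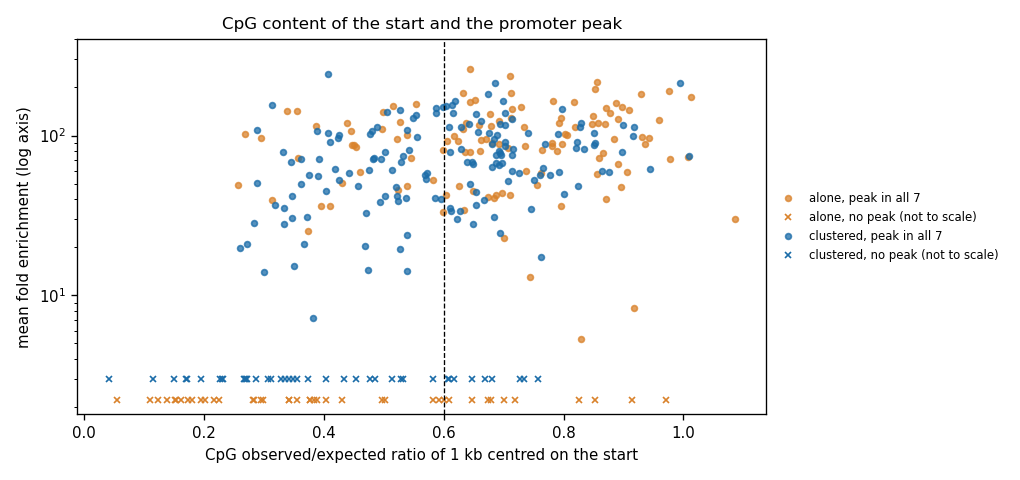
Mean fold enrichment over 7 libraries (log axis) against the CpG observed/expected ratio of the 1 kb centred on the start, for clustered (blue) and alone (orange) Zfp genes with an OCR in all 7 libraries. Crosses at the foot, not to scale, are genes with none, and the dashed line is the ratio of 0.6. Over the 154 clustered genes the rank correlation was 0.30, and crosses are denser to the left of the line.

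The 8 highest clustered genes were spread over several clusters. Levels differed by chromosome: the median fold enrichment of genes outside the Zfp set was 102 on chromosome 17 and 105 on chromosome 8, against 78.4 on chromosome 7 and 67.7 on chromosome 2, and the order below was not adjusted for it. Zfp13 on chromosome 17 had 240, 234, 317, 278, 176, 209 and 246 in the order of the replicates, from a pileup of 1123 (replicate 6) to 5136 reads (replicate 1), although its start is CpG-poor (ratio 0.407). Zfp446 followed at 214 ± 46.8 and Zfp787 at 214 ± 43.5, then Zfp444 at 181 ± 36.2, Zfp865 at 165 ± 23.1, Zfp868 at 165 ± 30.2, Zfp120 at 155 ± 29.1 and Zfp53 at 154 ± 29.9 (SD, n = 7). Zfp13 was above Zfp446 in 7 of 7 libraries, whereas Zfp446 and Zfp787 were each the higher one in some. Zfp787 and Zfp444 form a pair on chromosome 7, and Zfp13 pairs with Zfp213 at 147 ± 24.2. Of the 8, 3 held the KRAB pattern (Zfp13, Zfp120 and Zfp53).

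The 8 lowest among those open in all libraries were Zfp239, Zfp300, Zfp964, Zfp108, Zfp109, Zfp27, Zfp738 and Zfp429, from 19.9 ± 3.78 down to 7.24 ± 1.33. Zfp429 had 6.08, 5.88, 6.98, 6.79, 7.04, 8.15 and 9.76, from 31 to 129 reads at the summit, and its summit lay 298 bases after the start. Its highest value was below the lowest of every gene named in the previous paragraph. Zfp964, at 17.4 ± 3.67, lies in the same cluster as Zfp868 at 165 ± 30.2. Among the alone genes, the highest were Zfp142 (262 ± 55), Zfp687 (237 ± 48.6) and Zfp654 (216 ± 43.8), and the lowest Zfp11 (13.0 ± 2.12), Zfp711 (8.39 ± 1.79), whose human counterpart is a gene of X-linked intellectual disability, and Zfp516 (5.34 ± 0.51).

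Zfp809, Zfp445 and Zfp57 were looked up for their known roles, after the values had been seen. Zfp809, whose product silences murine leukemia virus through its primer binding site, belongs to a cluster on chromosome 9 and stood at 108 ± 26.3. Zfp445, which acts with ZFP57 in keeping genomic imprints, stood at 36.7 ± 10.6 in a pair whose other member Zfp105 had no OCR. Zfp57 itself stood alone at 49.3 ± 9.87.

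The order of the clustered genes by fold enrichment was much the same in every library: the rank correlation between pairs of libraries over the 154 genes had a median of 0.97 and a lowest value of 0.93, as a description over genes that share their libraries. Replicate 6 gave the lowest value at 151 of these genes and at 110 of the 118 alone genes open in all 7 libraries. This was not particular to Zfp genes: its median over the other protein-coding genes was 55.4, against 68.1 to 92.6 in the other libraries. The coefficient of variation over libraries had a median of 20.6% in the clustered genes.

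The width of the promoter OCR differed in the same direction as its height. The median width over clustered genes was 1627, 1249, 1479, 1284, 1249, 1431 and 1289 bp, and over alone genes 2299, 1686.5, 1843, 1697, 1714, 1858 and 1716 bp. Every clustered value was below every alone value. The difference was -458 ± 99.2 bp (SD, n = 7; exact sign-flip permutation test, p = 0.0156, adjusted 0.0176), and -307 ± 113 bp at CpG-rich starts. The median width was 1700 ± 176 bp in the other protein-coding genes, 1542 ± 198 bp in the interleaved neighbours and 1181 ± 103 bp in the Zscan and Zkscan genes. The median fold enrichment of the neighbours (68.0 ± 8.51) was close to that of the clustered genes (69.8 ± 12.5), and that of the Zscan and Zkscan genes was 50.7 ± 10.6; these differences were not tested. The widest clustered OCRs averaged 3633 ± 314 bp at Zfp866, 3115 ± 1059 bp at Zfp787 and 2793 ± 457 bp at Zfp777. Zfp866 was covered by an OCR that also reached another protein-coding start in at least 1 library, as did 18 of the 154. Over the 154 genes width and height had a rank correlation of 0.62.

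**Figure D5:**
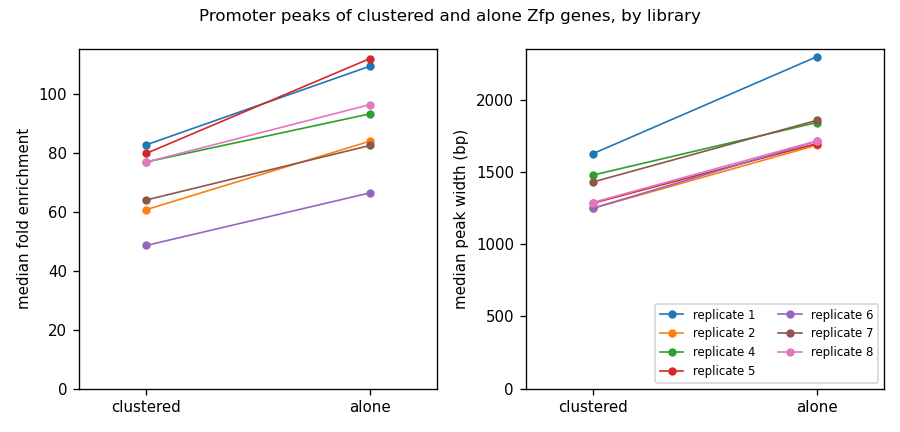
Median fold enrichment (left) and median width in bp (right) of the promoter OCR in clustered and alone Zfp genes, with 1 line per library. In each of the 7 libraries the clustered median is the lower of the pair in both panels, and the alone width of replicate 1 (2299 bp) stands above the others.

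In 4 cases a pair of neighbouring clustered genes shared 1 OCR in all 7 libraries. Zfp646 and Zfp668 start 607 bp apart on opposite strands (113 ± 25.9), Zfp944 and Zfp758 start 53 bp apart on opposite strands (67.3 ± 13.8), Zfp942 and Zfp943 88 bp apart on opposite strands (56.5 ± 11.6), and Zfp882 and Zfp617 27 bp apart on the same strand (33.9 ± 6.78). These pairs enter the counts as 2 genes each although they hold a single measurement. Of the 148 adjacent pairs of starts within clusters, 97 (65.5%) lay on the same strand, and the median gap was 34.1 kb. Summits lay close to the start, at a mean over libraries of the median distance of 82.1 bp in clustered and 96.0 bp in alone genes.

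The KRAB domain was then looked for by the core pattern of its A box in the longest coding transcript, translated from the genome. The pattern was found in 122 of the 202 clustered (60.4%) and 41 of the 163 alone genes (25.2%). A gene without a match is not shown to lack the domain. Matches were uneven over clusters, with all 9 genes from Zfp677 to Zfp229 but none from Zfp180 to Zfp94 or Zfp786 to Zfp746. No Zscan or Zkscan gene matched. The comparison by this translated pattern was added after the data were seen. Among the clustered genes, those with the pattern had a promoter OCR in 76.3 ± 1.10% of cases and those without in 80.5 ± 0.67%, a difference of -4.19 ± 1.06 points (exact sign-flip permutation test, p = 0.0156, adjusted 0.0176). It was -1.15 with the summit in the window, -2.75 with a window of 500 bp and -10.4 with 200 kb between starts. The sign turned among starts with at least 90% unique words (3.33 points) and in clusters of 3 or more genes (2.66 points), and at CpG-poor starts the shares were 69.4 ± 1.72% with and 64.9 ± 1.62% without it. Of the 30 clustered genes in repeated sequence, 28 carried the pattern. Among the alone genes the shares were 53.3 ± 2.61% with and 80.6 ± 0.40% without the pattern. Of these, 22.0% of the 41 and 73.8% of the 122 were CpG-rich, and 17 and 2 lay in repeated sequence. At CpG-poor starts of alone genes the shares were 46.4 ± 3.34% with and 54.5 ± 1.67% without it. The number of finger matches had a median of 11 in the clustered and 9 in the alone genes.

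Factors that work with KRAB zinc finger proteins were examined as a list of 13 genes: Trim28, Setdb1, Atf7ip, Cbx1, Cbx3, Cbx5, Dnmt1, Uhrf1, Chd4, Hdac1, Hdac2, Morc3 and Smarcad1. At the outermost annotated start, 10 of 13 had an OCR in all 7 libraries (background 51.6%), with a median fold enrichment of 116. Trim28 and Atf7ip had none there and Dnmt1 had one in 1 library. When any annotated start counted, 13 of 13 were open in all 7, against 55.9% of all protein-coding genes, with Trim28, the shared corepressor, at 121 ± 21.9, Dnmt1, the maintenance DNA methyltransferase, at 115 ± 18.1 and Atf7ip, a partner of SETDB1, at 46.7 ± 7.04. Setdb1 itself stood at 65.1 ± 17.

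The short motifs were counted in the 300-base promoters of 16539 protein-coding genes, on both strands, and a match is a description of the letters only. The letters searched were CCGGAAGT for ETS factors, CCAAT for NF-Y, GGGCGG for Sp factors, GCGCATGC for NRF1, AAGATGGCG for YY1, TGACGTCA for CREB, CACGTG for E-box factors, TATAAA for the TATA box, TCTCGCGA with no factor named here, and AANTGTAGT. No motif contains another. AANTGTAGT was added after promoter sequences were seen, and the Zfp108 sequence was printed for its matches to it. The reverse complement of AANTGTAGT begins ACTACA, as does the element known to bind ZNF143. AANTGTAGT was found in 39 of 174 clustered promoters (22.4%), against 5 of 126 alone promoters (3.97%) and 2.01% of all promoters. Read at the RefSeq start, where the sequence was taken, an OCR was present in all 7 libraries at 137 of the 174 clustered promoters and in none at 31. The match was in 33 of the 137 (24.1%) and 6 of the 31 (19.4%), a comparison added after the data were seen and not tested. The median fold enrichment at the 137 starts was 66.9 with it and 70.0 without it.

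The AANTGTAGT matches were uneven over the genome, and members of a cluster share ancestry. They fell in 12 of the 50 clusters with a promoter sequence, with 10 of 14 promoters in the Zfp84 to Zfp146 cluster, 7 of 9 in Zfp180 to Zfp94, 8 of 13 in Zfp712 to Zfp748 and 3 of 3 in Zfp879 to Zfp2 on chromosome 11. In the sequences printed above, Zfp112 holds 3 matches and no OCR, and Zfp626 holds 1 and no OCR. Zfp108, of the same cluster as Zfp112, holds 2 and an OCR in all 7 libraries, but it was picked by both traits. Zfp13, the highest clustered gene, holds no match to any of the 10 motifs. GGGCGG was found in 38.5% of clustered, 51.6% of alone and 48.2% of all promoters, and CCAAT in 52.9%, 45.2% and 38.8%. TCTCGCGA was in 0 of the 174 clustered and 5 of the 126 alone promoters, against 1.58% of all. TATAAA was in 5.17%, 7.14% and 12.9% of clustered, alone and all promoters, AAGATGGCG in 1.15%, 5.56% and 2.04%, and GCGCATGC in 6.90%, 3.97% and 3.77%. TGACGTCA was in 2.87%, 3.17% and 2.43%, and CACGTG in 8.62%, 7.14% and 8.09%. CCGGAAGT was in 8.62% of clustered, 11.9% of alone and 5.56% of all promoters, and both of its matches in the printed sequences are in Zfp787.

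Outside promoters, the last coding exon and the density of OCRs were examined. The last coding exon holds the finger array in most of these genes, and it could be read apart from any promoter where it lies over 3 kb from every annotated transcript start. That was so for 141 clustered and 100 alone genes. An OCR lay over it in 3.75 ± 1.46% of the clustered and 3.43 ± 1.27% of the alone genes (SD, n = 7), a difference of 0.32 ± 0.64 points with values from -0.45 to 1.38 (exact sign-flip permutation test, p = 0.25, adjusted 0.25) whose sign turned under 4 alternatives. Alternatives passed the threshold in both directions: -0.956 points in clusters of 3 or more genes (exact p = 0.0156), -1.15 with every list reduced to the length of the shortest (exact p = 0.0312) and -0.577 with 200 kb between starts (exact p = 0.0469), but 1.97 with 50 kb between starts and 0.899 without chromosomes 1, 8 and 17 (exact p = 0.0312 for each). Those chromosomes were left out because promoter fold enrichment was known from earlier results to be higher there. Without replicate 1 it was 0.143 points. In at least 1 library, 12 of the 141 clustered genes had such an OCR, against 8.96% of all 11669 genes that could be read this way. The exon had a median length of 1391 bp in the clustered and 1042 bp in the alone genes, but 155 bp in the other protein-coding genes, and the counts were not adjusted for it. In all 7 libraries, such an OCR lay at 1 of the 141 clustered, 2 of the 100 alone and 348 of 11428 other protein-coding genes. The clustered one was Zfp956, while Zfp282, of the same cluster, and Zfp771, of another, had an OCR there in 6 libraries each.

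The density of OCRs was taken over 3 kb from every transcript start, in the 27 clusters of 3 or more genes, which span 4.60 Mb. There were 82 (replicate 2) to 138 (replicate 1) such OCRs, or 23.0 ± 4.41 per Mb, against 28.2 ± 5.08 per Mb over the chromosomes that hold the clusters. The log2 ratio was -0.30 ± 0.08 (SD, n = 7; exact sign-flip permutation test, p = 0.0156, adjusted 0.0176). Since the clusters are dense in starts, only 2.93 Mb of their span lies over 3 kb from a start. Counted per Mb of such sequence, the log2 ratio was 0.046 ± 0.08 (exact sign-flip permutation test, p = 0.188). Counted per Mb of span without chromosomes 1, 8 and 17, it was -0.065 (exact p = 0.0938), and with starts up to 200 kb apart joined -0.050 (exact p = 0.453). With 50 kb between starts the log2 ratio per Mb of span was -0.120 (exact sign-flip permutation test, p = 0.0156).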

How the data were processed

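Bulk ATAC-seq was performed on 7 HPC7 libraries. Per the study's methods, the authors used Cutadapt for trimming, BWA-mem for alignment (mm10) and MACS2 for calling peaks library by library, with versions and options not given in the sources used here. The deposited peak lists hold, per peak, a fold enrichment over background (a linear ratio), the -log10 of the p- and q-value as the authors' caller gave them, an integer score, and positions with the summit. The score was not used. The peak names carry prefixes that differ between 2 sets of libraries; the labels give a single condition, and the prefixes were not used as conditions.

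Here, genes, transcripts and starts were taken from GENCODE M21 (outermost gene start), CpG content, unique 100-base words and translated proteins from the GRCm38 genome, and promoters from RefSeq. An OCR was assigned to a start when it overlapped the window of 1 kb on either side by at least 1 bp. Per-library differences were tested by an exact two-sided sign-flip permutation test over all 128 sign patterns, with Benjamini-Hochberg adjustment over 9 tests. Each p covers the spread between libraries only. The OCR assignment and the clustering were tested on simulated data. Alternatives changed the window, the start, the q-value, the number of peaks, the clustering distance, the chromosomes and the libraries used. Clusters of 5 or more genes were named, as were the 8 highest and 8 lowest clustered genes open in all 7 libraries, the 3 widest, the 3 highest and 3 lowest alone genes, all 8 genes open in 1 to 6 libraries, and, of genes without an OCR, the first 2 of each large cluster. Other genes named were chosen after their values were seen. Members, lists and tests were chosen with earlier results of these data known. Python 3.11.15 tools were numpy 2.4.6, pandas 2.3.3 and scipy 1.17.1. One of the listed markers of other cell types is not reported here.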

Additional observations from a re-analysis of the deposited data

Results flagged for a closer look

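In 17 measures, each with 7 libraries, the highest or lowest library was set against its nearest neighbour by the gap over the range, by Dixon's test. Of these, 3 exceeded its 95% critical value, where chance gives about 1 in 20 for separate measures. Both width measures below rest on the alone width of replicate 1, so they are not separate. In the third measure the other 6 libraries were equal, so the gap filled the whole range. The median promoter OCR width of alone genes in replicate 1 was 2299 bp, with the next at 1858 bp. In the same library the width difference between clustered and alone genes was -672 bp, with the next at -465 bp. Replicate 1 also had the longest peak list and the highest background pileup, whose part in the width was not tested. At CpG-rich starts the difference in OCR share between clustered and alone genes was 2.23 points in replicate 4 and 1.22 points in each of the other 6 libraries, which is the step of a single gene.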

How the results depend on the processing

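Of 183 values recomputed and tested under alternatives, 169 kept their direction and their side of the 0.05 threshold. The comparisons of clustered genes with other protein-coding genes and with interleaved neighbours, of fold enrichment and of width did so in each alternative with a test. Their sizes moved, and the difference from other protein-coding genes ran from 7.30 points at CpG-rich starts to 39.2 points at CpG-poor starts. The difference in OCR share from alone genes fell to 1.01 points with 200 kb between starts and to 0.241 points when each cluster counted once, and leaving out each of the 13 large clusters in turn gave 2.53 to 5.24 points (added after the data were seen). At CpG-rich starts it was 0.011 points when any transcript start of the gene counted. The last-exon difference was -0.53 points with a -log10 q of at least 5, -1.15 with every list reduced to the length of the shortest, -0.58 with 200 kb between starts, -0.96 in clusters of 3 or more genes, 1.97 with 50 kb between starts and 0.899 without chromosomes 1, 8 and 17. The difference by KRAB pattern was 2.66 points in clusters of 3 or more genes and 3.33 points at starts with 90% unique 100-base words. The density log2 ratio was -0.120 with 50 kb and -0.050 with 200 kb between starts, -0.065 without chromosomes 1, 8 and 17, and 0.046 per Mb over 3 kb from any start. The cause of these changes was not tested. Leaving out each library in turn changed no call, although the last-exon difference was 0.143 points without replicate 1, and the share difference from alone genes then ran from 4.06 to 4.45 points (exact p = 0.0312 at 6 libraries, the smallest possible). Within the 2 sets of peak name prefixes, where 18 values were recomputed without a test and kept their direction, it was 3.82 and 4.66 points. Samples could not be paired between groups, because the labels give a single group. The tests compare gene sets within each library and are paired in that sense. The KRAB comparison was run on GENCODE proteins in place of a RefSeq table that was not used here. Summit pileups of 12 to 35 reads at the weakest peaks limit what an absent call shows.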
